A study of Mus musculus with 6 samples.

Results

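The Tcf/Lef transcription factors Tcf7, Lef1, Tcf7l1 and Tcf7l2, their coactivator beta-catenin (gene Ctnnb1) and the Groucho corepressors Tle1 to Tle4 were followed across 4 lists of chromatin peaks from mouse natural killer (NK) cells. The members are these 9 of 21685 protein-coding genes with usable positions, chosen by name and matched by Entrez identifier. Spleen was the source of the NK cells, and IL-2, a cytokine that expands them, was given at 500 ng/mL during 5 days of culture. Wild-type cells (WT) came from Tcf7+/+ mice of strain B6, and knockout cells (KO) from Tcf7-/- mice labelled B6.129 Tcf7Tm1Cle, so that strain and genotype cannot be told apart. One antibody recognised Tcf1, the protein that Tcf7 encodes, and the other H3K4me3, which marks histones at active promoters. Each combination of genotype and antibody is 1 library, and the 2 input libraries were not analysed here. No difference between genotypes therefore has a replicate check, and none has a p-value. The genotype is given for the mice, not for NK cells alone, and neither their age nor their number is given in the sources used here.

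Tcf/Lef proteins bind DNA through a conserved HMG box and do not activate genes by themselves. Bound to Groucho (Tle) proteins they keep target genes off. When Wnt signals spare beta-catenin from destruction, it enters the nucleus, takes the place of Groucho on Tcf/Lef and recruits coactivators. Tcf7 and Lef1 are best known in T cells, where they act in part redundantly. In NK cells Tcf1 is needed for normal development.

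The WT and KO Tcf1 lists held 866 and 5139 peaks, with a median false discovery rate (FDR, the peak caller's estimate) of 26.6% and 96.9%. The H3K4me3 lists held 13771 peaks in WT and 11074 in KO, with 6635272 and 7507763 tags (reads counted in peaks). The median fold enrichment of H3K4me3 peaks over background was 30.8 in WT and 18.4 in KO. Sequencing depth is unknown, because these totals cover called peaks alone. All intervals below cover counting error only. The label of the cells was checked against markers. H3K4me3 stood at the start sites of 12 of 12 NK cell marker genes in both libraries, and at none of 5 B cell and none of 5 myeloid marker genes. It was called at 2 of 8 T cell marker genes, both in WT alone, with 64 tags at Cd3e and 35 at Cd3d, and at 2 of 3 erythroid marker genes in WT and 1 in KO. Klf1, an erythroid factor, had 264 tags in WT, near the WT levels of Tcf7l1 (251) and Tle1 (225). In KO it had 227, where Tcf7l1 had 178 and Tle1 no peak. Epor had 56 in WT alone. The part of other cells in the results for Tcf7 and Lef1, which T cells also use, was not tested. In such bulk chromatin, fewer cells with a mark and less mark in each cell cannot be told apart.

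Stretches before 5 member start sites are shown, from the RefSeq promoter table for GRCm38.p6, 5′ to 3′ on the gene's strand. The first, at Tcf7, lies wholly inside a Tcf1 peak. It precedes a start site of the promoter table but lies downstream of the RefSeq gene's 5′ end, so it is part of the gene in its longer form. Those at Tle1 and Tle2 precede the start sites that lacked H3K4me3 in KO or in both genotypes. In these 3, capitals mark CG dinucleotides. The first is 160 bases (chr11:52283015-52283174, minus strand), the second 250 bases (chr4:72200894-72201143, minus strand) and the third 250 bases (chr10:81575037-81575286, plus strand).
Tcf7: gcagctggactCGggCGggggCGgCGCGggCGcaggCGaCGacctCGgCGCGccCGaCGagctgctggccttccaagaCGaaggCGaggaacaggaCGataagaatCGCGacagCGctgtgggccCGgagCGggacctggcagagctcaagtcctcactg
Tle1: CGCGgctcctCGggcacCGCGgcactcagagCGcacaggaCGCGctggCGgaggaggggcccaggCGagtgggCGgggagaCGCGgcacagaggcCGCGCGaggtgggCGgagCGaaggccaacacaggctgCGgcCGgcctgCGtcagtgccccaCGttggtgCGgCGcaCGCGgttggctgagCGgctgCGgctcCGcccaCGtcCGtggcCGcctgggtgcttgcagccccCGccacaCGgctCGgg
Tle2: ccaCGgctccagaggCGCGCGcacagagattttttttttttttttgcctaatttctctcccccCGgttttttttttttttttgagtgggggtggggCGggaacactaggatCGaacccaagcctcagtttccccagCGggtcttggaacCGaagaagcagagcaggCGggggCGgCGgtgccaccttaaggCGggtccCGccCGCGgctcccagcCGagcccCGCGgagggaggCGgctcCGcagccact
In the other pair, capitals mark letters of the Tcf/Lef motif, CTTTGA or CTTTGT on either strand. They come from Tcf7l1 (250 bases, chr6:72789046-72789295, minus strand), whose H3K4me3 ratio was lowest, and from the most downstream start site of Lef1 (200 bases, chr3:131156094-131156293, plus strand).
Tcf7l1: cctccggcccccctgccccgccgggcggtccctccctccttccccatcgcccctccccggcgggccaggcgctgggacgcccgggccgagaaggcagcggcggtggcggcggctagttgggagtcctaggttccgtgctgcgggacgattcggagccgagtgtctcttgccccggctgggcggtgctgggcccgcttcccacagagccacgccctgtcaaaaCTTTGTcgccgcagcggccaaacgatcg
Lef1: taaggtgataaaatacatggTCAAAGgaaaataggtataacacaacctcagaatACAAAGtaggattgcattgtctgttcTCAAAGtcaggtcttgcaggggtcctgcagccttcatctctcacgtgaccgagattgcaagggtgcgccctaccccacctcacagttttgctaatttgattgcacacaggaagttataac

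Tcf/Lef motif letters were found in promoters of 3 of 9 members. Over windows of 300 bases (250 before and 50 from the start site), 3 of 16 member promoters held CTTTGA or CTTTGT, against 28.3% of 21237 promoters of protein-coding genes. None of the 16 held the longer CTTTGAT, which 3.22% of all promoters held and which contains CTTTGA. Neither Tcf7 window had a match, nor had the 3 upstream Lef1 windows. Tcf7l1 had CTTTGT 28 bases before its start site, the second start site of Tcf7l2 had it 14 bases before, and the downstream start site of Lef1 had 3 matches. No Tcf1 peak of either genotype covered any of those 3 start sites. The summits of both strong Tcf1 peaks described next lie outside these windows, so the letters at those summits were not searched.

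Tcf1 peaks called in WT alone lay at Tcf7 itself and at Lef1, and at no other member within 50 kb. That is 2 of 9 members, where 3.87% of all genes met the same rule, which counts peaks over the gene body too. Only Tcf7 had one within 1 kb of a start site (1 of 9, against 0.198% of all genes). Members spanned 17.8 to 192 kb, against a median of 17.2 kb over all genes, so their search windows were wider than most. With the score of a peak (minus 10 times the log10 of the caller's p-value) required to be at least 100, the count was again 2 of 9, against 0.314% of all genes. With that score, KO-only peaks lay near none of the 9, against 0.968% of all genes.

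At Tcf7, which encodes the antibody's target, the Tcf1 peak covered the start site (chr11, 52282921 to 52283707, GRCm38/mm10). It held 123 tags in WT, with a score of 479, a fold enrichment of 13.1 and an FDR of 5.56%. Its summit lay 0.363 kb upstream of the start site of the promoter table and 6 bp from the 5′ end of the RefSeq gene, which is 369 bp further upstream. It also lay 204 bp upstream of the WT H3K4me3 summit, inside the H3K4me3 peak. Among the 751 peaks called in WT alone, it ranked 4 by score, 9 by fold enrichment and 29 by tags. In KO no Tcf1 peak was called there, and the nearest one was 1367 kb from the start site. A peak that was not called can still hold tags, since the weakest KO peak held 10.

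A second WT Tcf1 peak stood 35.4 kb upstream of Tcf7, which was also the nearest gene start (chr11, 52318274 to 52318749). It was weak, with 28 tags, a score of 58.2 and an FDR of 26.9%, near the median score of 57.0 for peaks called in WT alone. It overlapped no H3K4me3 peak.

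At Lef1, the relative closest to Tcf1 in function, the WT Tcf1 peak lay outside the promoter (chr3, 131105576 to 131106506). Its summit was 4.21 kb upstream of the first start site, and its edge 2.79 kb from the nearest H3K4me3 peak. It held 113 tags with a score of 312, a fold enrichment of 10.8 and an FDR of 3.85%, and no peak called in WT alone had a lower FDR. It ranked 9 by score among those peaks, and the nearest KO Tcf1 peak was 394 kb from the first Lef1 start site. The FDR did not always follow the score, as the Tcf7 promoter peak ranked 4 by score and 18 by FDR. The 2 strong peaks thus differed in place, 1 over a promoter with H3K4me3 and 1 upstream of it without the mark.

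**Figure D1:**
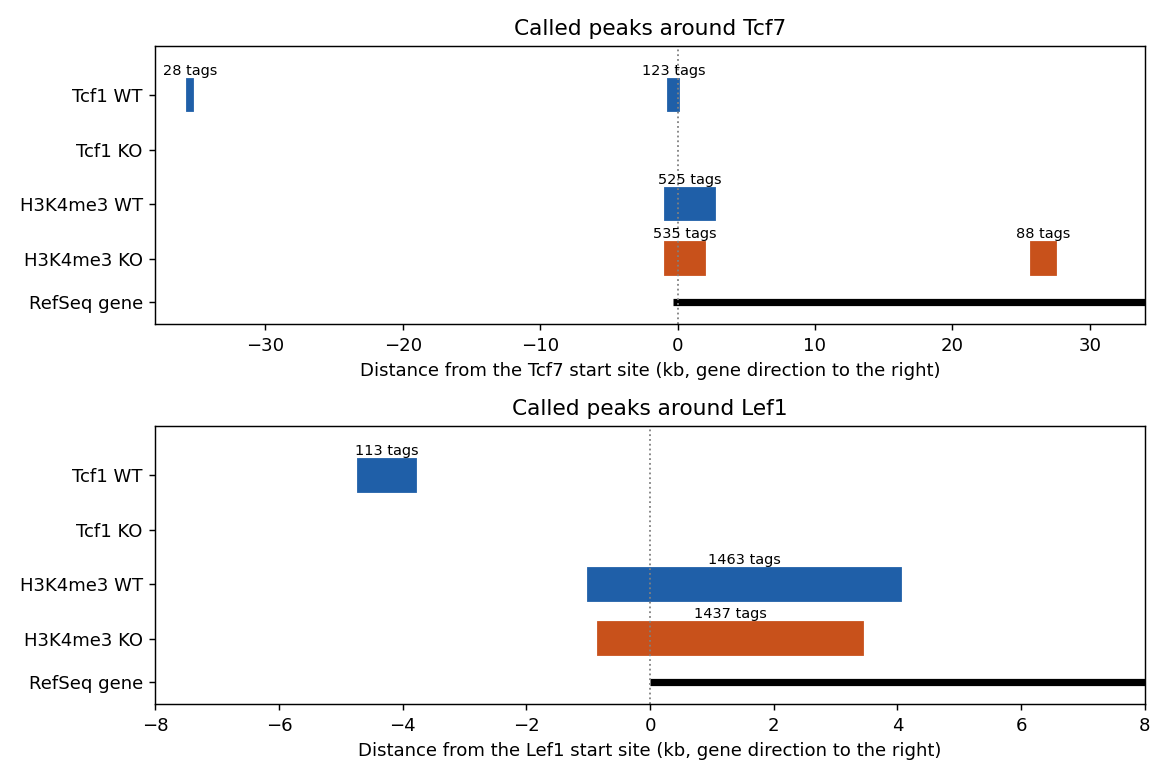
Called peaks around Tcf7 (top) and Lef1 (bottom) by distance from the start site in kb, with 1 row for each of the 4 libraries, the tags of each peak and the RefSeq gene as a black bar. The Tcf1 peak of 123 tags sits on the Tcf7 promoter within H3K4me3, that of 113 tags stands upstream of the Lef1 H3K4me3 peak, and the Tcf1 KO rows are empty.

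The KO Tcf1 list, from the mice labelled as lacking Tcf7, held 1 peak within 50 kb of a member, against 20.2% of all genes. It lay 48.4 kb upstream of Ctnnb1 (chr9, 120884784 to 120885101), with 11 tags, a score of 51.8 and an FDR of 76.7%. The lists also assign to Tle3 a KO peak 91.2 kb beyond the gene, with 15 tags and an FDR of 86.4%. No member had a Tcf1 peak called in both genotypes within 50 kb, as had 0.581% of all genes. Tcf7l1, Tcf7l2, Tle1, Tle2, Tle3 and Tle4 had no Tcf1 peak of either genotype within that distance.

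Genes with the pattern of Tcf7, a Tcf1 peak called in WT alone within 1 kb of a start site and H3K4me3 there in both genotypes, made up 0.106% of all genes. Ordered by the difference in Tcf1 score from Tcf7 over these 2 Tcf1 libraries, the nearest of 22 others were 1190007I07Rik (132 tags, score 460), Zfp703 (109 tags, score 417) and Cyb5r4 (154 tags, score 788). Zfp142 and Bcs1l, which share a promoter and a peak of 59 tags with a score of 123, came next. None of these 5 is a Tcf/Lef or Groucho gene.

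H3K4me3 was present at the start sites of 8 of 9 members in WT and 7 in KO, against 52.5% and 46.8% of all genes. Of the members 7 were marked in both (46.7% of all genes) and none in KO alone (0.161%). A gene counted as marked when a peak came within 1 kb of an annotated start site, and tags of such peaks were summed. KO held 1.20 times the tags of WT at the median gene marked in both, so log2 ratios of KO over WT are given relative to that gene. Of the 7 members marked in both, 4 had a counting interval below 0 and none above, against 22.1% and 19.3% of such genes. Their median ratio was -0.23, where that of all genes is 0 by construction, and -0.11 for tags per kb of peak. The SD of the ratio over all such genes was 0.30, and of the 7 members only Tcf7l1 lay further from 0 than that. The counts of intervals depended on the scaling. With scaling to the summed tags of each list, the ratio of Tcf7 was -0.151 with an interval half-width of 0.174, which includes 0. That of Tle4 was 0.101 with a half-width of 0.096, so its interval lay just above 0.

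Among the DNA-binding factors, Tcf7 had 525 tags in WT and 535 in KO, almost level before scaling. Its ratio was -0.24 (95% counting interval -0.41 to -0.06), but 0.06 per kb of peak, since the KO peak was narrower, with 2872 bp against 3669 bp. The sign for Tcf7 thus turned with the measure. The narrowing lay on the gene side, where the peak reached 2.72 kb past the start site in WT and 1.98 kb in KO, while it reached 0.951 and 0.892 kb upstream. Tcf7 is also the gene altered in the KO mice, and the part of the altered allele in its KO tags and width was not tested. Lef1 had 1463 tags in WT and 1437 in KO (-0.29, interval -0.40 to -0.19), and -0.11 per kb. Its peak was 5069 bp wide in WT, wider than or equal to 96.3% of marked promoters, and 4290 bp in KO. It covered 3 of the 4 annotated Lef1 start sites in both genotypes.

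Tcf7l1, which encodes a family member known mainly as a repressor, gave the lowest ratio of the group. It held 251 tags in WT and 178 in KO (-0.76, interval -1.04 to -0.48), with percentile 3.15 among genes marked in both. It was 1 of 7 members below -0.5, against 6.35% of all genes, and none was above 0.5, against 1.37%. Unlike Tcf7, it kept the difference per kb of peak, at -1.02, as its peak was 1399 bp wide in WT and 1606 bp in KO. The caller's score there was 1283 in WT and 116 in KO, and its fold enrichment 19.9 and 5.27. Lower values in KO were not particular to Tcf7l1. At Tcf7, with almost level tags, the score was 2464 in WT and 980 in KO, and the fold enrichment 38.7 and 12.1. Tcf7l2, the family member best known from gut and pancreas biology, had few tags over a wide peak, 195 in WT and 264 in KO (0.17, interval -0.10 to 0.44). Its peaks were 3033 and 3139 bp wide and covered its first start site alone. The directions of Tcf7l1 and Tcf7l2 thus differed, though the interval for Tcf7l2 included 0.

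Ctnnb1, which encodes beta-catenin, had 1257 tags in WT and 1440 in KO (-0.07, interval -0.18 to 0.04). The sign turned to 0.14 per kb and to 0.02 with scaling to summed tags, with a peak of 3858 bp in WT and 3216 bp in KO. Its mark differed from the median gene by less than counting error in tags.

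Groucho genes covered the full range from no mark to some of the strongest. Tle3 had 2706 tags in WT and 2772 in KO, at or above 99.6% and 99.2% of marked promoters. Its ratio of -0.23 (interval -0.31 to -0.15) was -0.24 per kb. Tle4 had 1571 tags in WT, split over 2 peaks of 1386 and 185 tags, and 1906 in KO in a single peak (0.01, interval -0.08 to 0.11). With only peaks over a start site counted, the smaller WT peak of Tle4 dropped out and the ratio was 0.19, and per kb of peak it was -0.15, so no direction can be given for this gene.

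Tle1 was marked in WT alone, as were 5.81% of all genes. Its WT peak held 225 tags over 2524 bp, with a score of 708, while no KO H3K4me3 peak lay nearer than 909 kb to the start site. Tle1 ranked 46 by tags among the 1259 such promoters, whose median was 75 tags. Of 1145 promoters with 80 to 125% of its WT tags, 79 (6.90%) were marked in WT alone. Of the 256 that also had 80 to 125% of its tags per kb, 31 (12.1%) were. The peak caller's fold enrichment was lower in KO than in WT at each of the 7 members marked in both, as it was at the median peak, and its part in the loss of the Tle1 call was not tested.

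Tle2 was marked in neither library, as were 47.4% of all genes. The nearest H3K4me3 peak was called in WT alone, with its summit 4.31 kb upstream, 70 tags and a score of 105. Tle2 lies on chromosome 10 beside 2 relatives, the short Groucho gene Tle5 on one side and Tle6 on the other. Tle5 had 1328 tags in WT and 1644 in KO (0.04, interval -0.06 to 0.15), and Tle6 had no H3K4me3 at its start site. Within this cluster the mark thus stood at 1 of 3 start sites. Counted over 300 bases (the 250 shown above and the next 50), the Tle2 promoter held 28 CG dinucleotides, against a median of 22 for promoters of genes marked in both genotypes and 4 for those marked in neither. Tle1 had 40, and Tle4 had 28 and 44 at its 2 start sites. The CG count of Tle2 was thus like that of marked members, although its start site was unmarked.

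**Figure D2:**
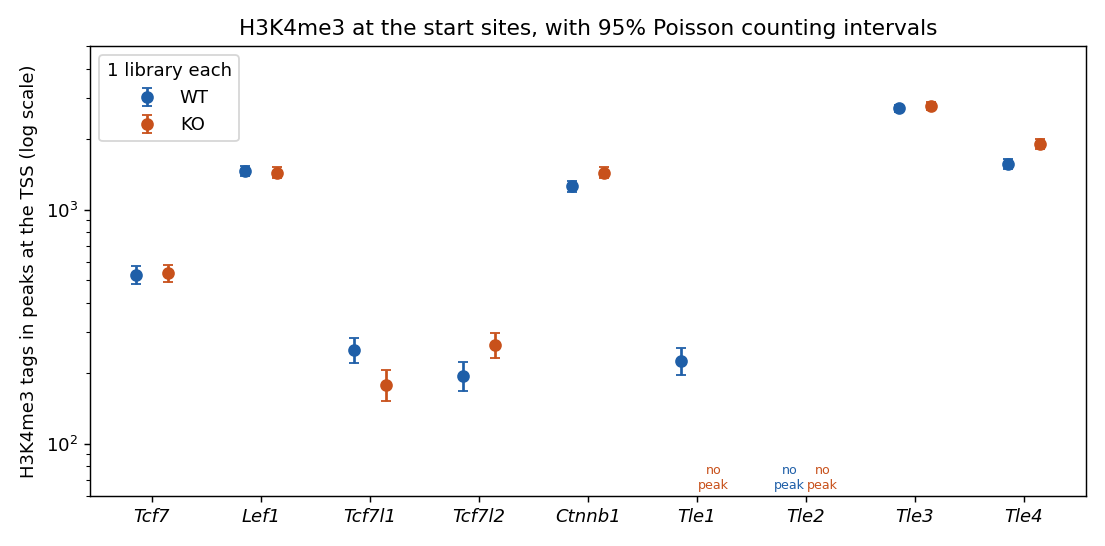
H3K4me3 tags summed over peaks within 1 kb of a start site (log scale) for the 9 members in WT (blue) and KO (orange), 1 library each, with 95% Poisson counting intervals as bars. Tle3 is highest at 2706 and 2772 tags, Tle1 has no peak in KO, and Tle2 has none in either genotype.

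**Figure D3:**
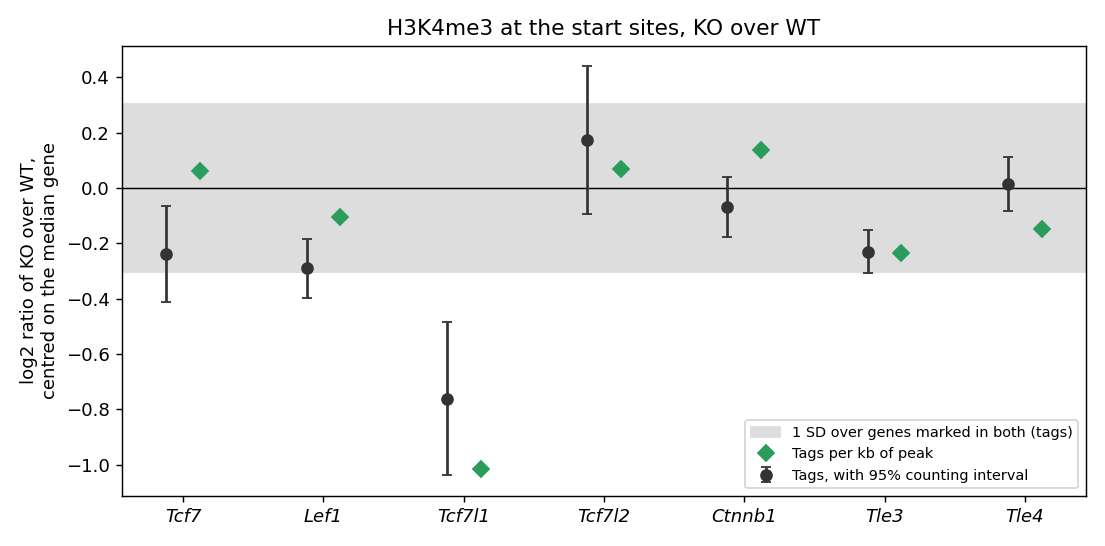
Log2 KO/WT ratio for the 7 members marked in both, centred on the median gene, by tags (black, with 95% counting interval) and by tags per kb of peak (green), with 1 SD over all genes marked in both as a grey band. Tcf7l1 lies below the band on both measures, at -0.76 and -1.02, and Tcf7 moves from -0.24 to 0.06.

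Levels were compared between genes per kb of peak, as tags per kb. In WT the order was Tle3 (504), Tle4 (467), Ctnnb1 (326), Lef1 (289), Tcf7l1 (179), Tcf7 (143), Tle1 (89.1) and Tcf7l2 (64.3). In KO it was Tle3 (535), Tle4 (526), Ctnnb1 (448), Lef1 (335), Tcf7 (186), Tcf7l1 (111) and Tcf7l2 (84.1). Counting intervals of Tle3 and Tle4 overlapped in both libraries, and those of the other neighbours in each order did not. The only members to swap places were Tcf7 and Tcf7l1. In WT, Tle3 was at or above 98.7% of marked promoters by this measure and Tcf7l2 at or above 8.37%, so the family spanned most of the scale.

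**Figure D4:**
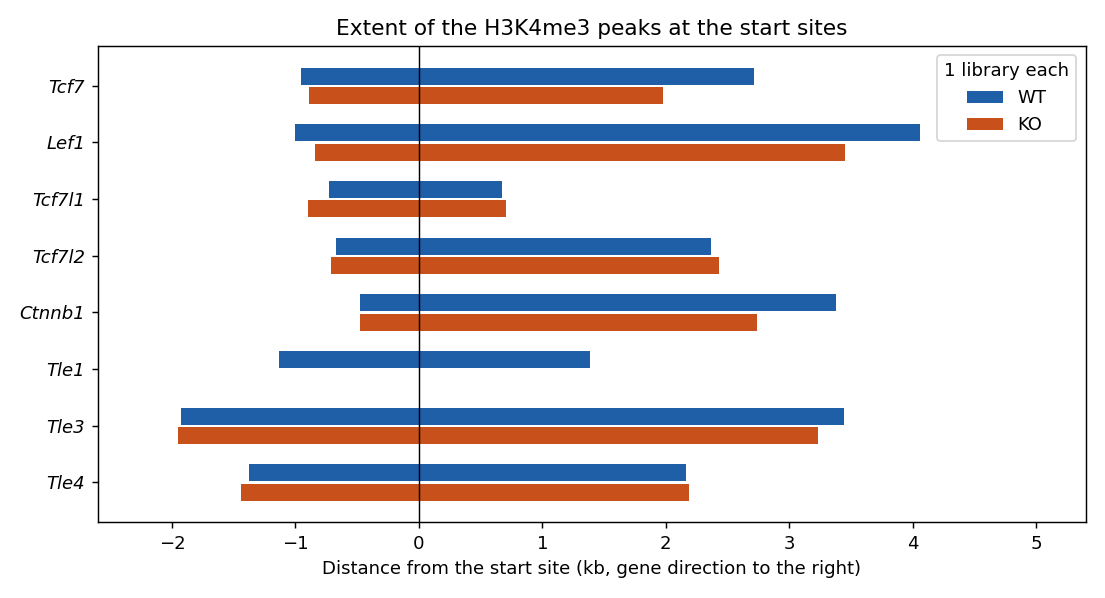
Extent of the H3K4me3 peaks at the start site of the 8 members marked in WT, as outer bounds in kb from the start site, for WT (blue) and KO (orange). Peaks of Tcf7, Lef1 and Ctnnb1 reach less far into the gene in KO, with ends at 1.98, 3.45 and 2.74 kb against 2.72, 4.06 and 3.38 kb.

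Peak width was smaller in KO at 4 of the 7 members marked in both, and smaller at 64.7% of all such genes. The width differed by -21.7% at Tcf7, -15.4% at Lef1, -16.6% at Ctnnb1 and -3.41% at Tle3, and by 14.8% at Tcf7l1, 3.49% at Tcf7l2 and 7.79% at Tle4. The median over all genes was -3.30%. The Tle4 value sets 2 WT peaks, summed without the gap between them, against a single KO peak. By outer bounds the Tle4 mark reached 1.37 kb upstream and 2.16 kb past the start site in WT, and 1.44 and 2.19 kb in KO.

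Away from the start sites, members carried a single H3K4me3 peak inside a gene. It lay in Tcf7 and was called in KO alone, 27.0 kb past the start site (chr11, 52255460 to 52257306). It held 88 tags over 1.85 kb, with a score of 64.9 and an FDR of 16.7%, and ranked 10612 of 11074 KO peaks by score. KO peaks that overlapped no WT peak made up 3.58% of the KO list, and 32.3% of those lay inside a gene away from every start site. Their median was 37 tags, and the Tcf7 peak ranked 29 of 396 among them by tags. As Tcf7 is the gene altered in the KO mice, the altered allele and a change of chromatin cannot be told apart at this peak. The downstream start sites of Lef1 and Tcf7l2 had no peak of either antibody over them. Other H3K4me3 peaks within 50 kb of Tcf7, Lef1 and Tcf7l1 stood at neighbours, such as the peak at Skp1, with 620 tags in WT and 804 in KO.

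The other genes of the pathway were read from 5 lists of 60 genes, of which 59 were measured. Their counts of genes marked in both stand against 46.7% of all genes. Their counts of intervals below and above 0 stand against 22.1% and 19.3% of all genes marked in both. Those interval counts hold for ratios relative to the median gene. Scaling to summed tags moves all ratios up by 0.09, which takes some intervals to include 0 or lie above it. Genes of the beta-catenin destruction complex and of its turnover were marked in both libraries in 11 of 12 cases. Their median ratio was -0.01, and 1 had an interval below 0 and none above. That gene was Axin2, which encodes a scaffold of the destruction complex and a Wnt feedback inhibitor, with 453 tags in WT and 247 in KO (-1.14). It also carried the strongest Tcf1 peak of the lists, with 251 tags and a score of 1378 over its start site in WT alone, though the FDR given for it was 33.3%. Nuclear partners of beta-catenin were marked in both in 15 of 16 cases, with a median of -0.01, 1 interval above 0 and 4 below. The lowest was Bcl9, which encodes the adaptor between beta-catenin and Pygopus, with 488 tags in WT and 371 in KO (-0.66, and -0.66 per kb). Weak WT-only Tcf1 peaks lay inside Ctnnbip1, whose product blocks beta-catenin from Tcf (19 tags), and near the start site of Tbl1xr1, a corepressor subunit (32 tags).

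Corepressor enzymes and short Groucho relatives were marked in both in 7 of 9 cases, with a median of 0.01, 1 interval above 0 and 1 below. Other DNA-binding partners of Groucho were marked in both in 3 of 6 cases (median -0.09), with 1 interval below 0 and none above. All 3 ratios were below 0 in tags, but all 3 were above 0 per kb of peak (median 0.03) and 2 were above 0 with scaling to summed tags. Of that list, Hes1 (233 tags) and Hes5 (59 tags), targets of Notch that encode repressors, were marked in WT alone, as were 5.81% of all genes. Prdm1, which encodes the repressor Blimp-1, had a WT-only Tcf1 peak of 37 tags in its annotated gene, and a ratio of -0.26 that came to 0.15 per kb.

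Wnt receptor and Dishevelled genes were marked in both in 10 of 16 cases, and all 10 had ratios below 0 in tags, but 8 per kb of peak and 8 with scaling to summed tags. Their median was -0.21. The interval was below 0 for 5 of them (22.1% of all such genes) and above 0 for none (19.3%). The lowest were 2 Frizzled receptor genes, Fzd7 with 591 tags in WT and 232 in KO (-1.61, and -1.32 per kb) and Fzd6 with 262 and 147 (-1.10, and -0.98 per kb). Only the intervals of these 2 genes stay below 0 with scaling to summed tags. Another 5 of the 16 were marked in WT alone, against 5.81% of all genes. They were Fzd1, Fzd2, Fzd3, Fzd9 and the coreceptor gene Lrp5, with 41 to 138 tags. The median in WT was 75 tags for all genes marked in WT alone and 557 for those marked in both. No share among promoters of similar tags was taken for this list. Of the 16 genes, none had a Tcf1 peak called in WT alone within 50 kb, against 3.87% of all genes, and 4 had a KO-only one, against 20.2%. The lists before it had, in order, 2 of 12, 1 of 16, 0 of 9 and 2 of 6 genes near a KO-only Tcf1 peak.

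**Figure D5:**
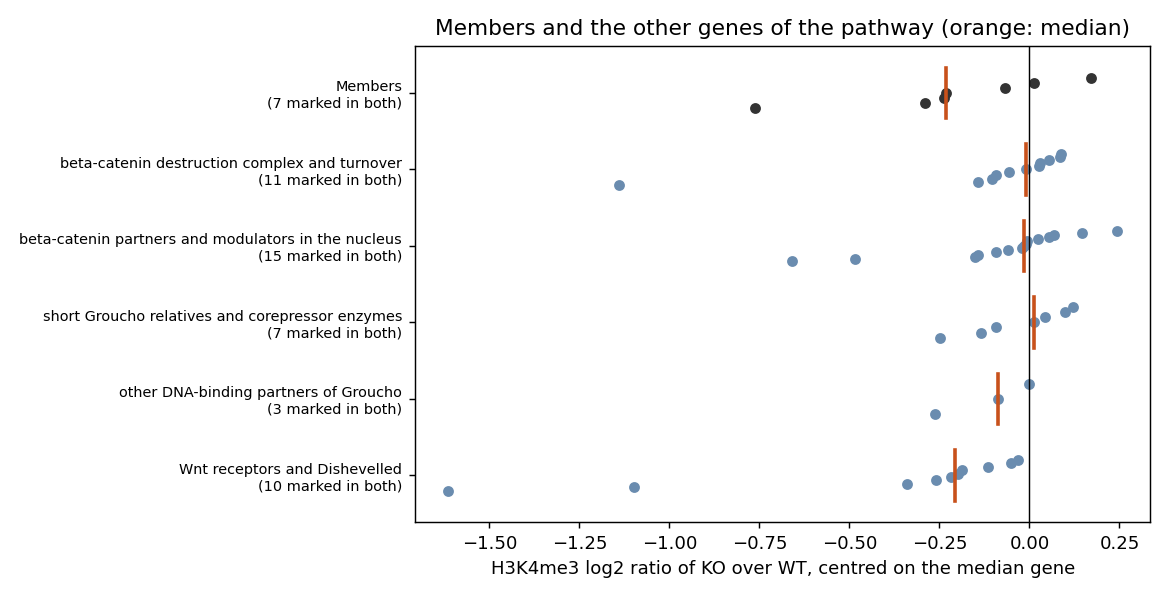
H3K4me3 log2 KO/WT ratio relative to the median gene for the 7 members and for genes of the 5 pathway lists marked in both genotypes, 1 point per gene with the median in orange. All 10 Wnt receptor and Dishevelled genes lie below 0 (8 per kb or with scaling to summed tags), and Axin2 and Fzd7 stand apart at -1.14 and -1.61.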

How the data were processed

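Per the submitters' processing notes, Bowtie2 2.1.0 and MACS 1.4 were used, with builds mm10, GRCm38 and GRCh37 named without a role. Neither peak settings nor the control are given in the sources used here. Peaks were called per library. Per the file headers, the deposited lists give counts of tags per peak, a score of minus 10 times log10 of the p-value, a fold enrichment (ratio over background) and an FDR in percent. Rows were reduced to distinct peaks and starts converted to count from 1.

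Positions were read as GRCm38, since 99.8% of matched Ensembl features overlapped the same RefSeq gene. Start sites came from the RefSeq promoter table for 17491 genes and from the deposited Ensembl features for 2508. Another 1686 had no H3K4me3 peak near either end and counted as unmarked. A further 198 were left out, as their start was unknown. This rule used the H3K4me3 peaks, so shares of marked genes are approximate.

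Tcf1 peaks were shared at an overlap of 1 bp. Counting intervals (95%) assume Poisson counts, and PCR copies were not identified. Members, lists and rules were chosen with earlier results of these data known. The text names all members, list genes with a WT-only Tcf1 peak, with H3K4me3 in 1 genotype, or with a ratio beyond 0.5 of the same sign per kb and at least 100 tags, and the 5 genes most like Tcf7. For Tcf1, alternatives were a distance of 10 or 100 kb, a minimum score of 100, a maximum FDR of 30% and an overlap of 50%. For H3K4me3 they were a start-site window of 0 or 2.5 kb, equally long lists, tags per kb, merged regions and scaling to summed tags. Ratios were tested on simulated data. Software was pandas 2.3.3 and numpy 2.4.6 in Python 3.11.15, scipy 1.17.1 for intervals, and matplotlib 3.10.9.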

Additional observations from a re-analysis of the deposited data

How the results depend on the processing

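Each group had 1 library, so no replicate could be left out. No paired analysis was possible because no group has a second library and the labels give no replicate numbers. The 2 members with a WT-only Tcf1 peak, Tcf7 and Lef1, were counted under every alternative run, with 3 at a distance of 100 kb, where a peak of 17 tags lay 94.7 kb from Tle2. The count of members near a KO-only Tcf1 peak was 1, but 0 at 10 kb, 0 with scores of at least 100, 0 with an FDR of at most 30% and 2 at 100 kb. Counts of members with H3K4me3 at the start site did not move under the alternatives run. The median ratio of -0.23 came to -0.11 per kb of peak. The ratio of Tcf7 turned from -0.24 to 0.060 per kb, where its KO peak was narrower. Of 42 recomputed ratios of single members, 36 moved by less than the counting interval. That count says little, as the wider window, equally long lists and merged regions kept the same tags for every member. Tags per kb, which changes the measure, moved Lef1, Ctnnb1 and Tle4 by more than the counting interval and reversed Tcf7. Scaling to summed tags moved all ratios up by 0.09. Ratios of peaks called separately depend on where each library's peak ends, and a peak that was not called is not shown to be absent.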
